A study of Mus musculus with 22 samples.

Results

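Netrins and their receptors were followed across 22 Affymetrix arrays of cerebellar granule cells from mouse pups at postnatal day 7. The rule for members goes by gene symbol and takes all probe sets (groups of short probes that report 1 transcript) annotated to the ligands Ntn1 and Ntn4 or to the receptors Dcc, Neo1, Unc5a, Unc5b, Unc5c and Unc5d. This gave 18 probe sets of 45101 on the array, and 8 genes of the 18193 genes that a probe set names alone. All 8 genes entered the table of 10771 genes that was tested, in which each gene is represented by its brightest probe set and must reach a mean log2 signal of 6.44, the median over all probe sets. Signals are given on the log2 scale and changes as log2 differences ± SE.

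The study made 3 separate comparisons, each between 2 groups of cerebellar granule cells. The sample titles call them CGNs, the name used here, while the labelled cell type of all 22 is Granule Neuron Progenitors, and the study calls cultures with an agonist of Smoothened progenitors and those without it neurons. Untreated Chd7 mutant CGNs (n = 4) were compared with untreated wild type CGNs (n = 4). The study describes its homozygous mutant as Atoh1-Cre::Chd7 f/f and its controls as Chd7 f/f, so that both carry the floxed alleles, and Atoh1-Cre acts in the granule lineage with less recombination in the posterior lobe. ICRF-193, which blocks the catalytic cycle of type II topoisomerases, was given at 10 µM for 12 h (n = 4), and these CGNs were compared with CGNs given the solvent DMSO (n = 4). Cultures with Smo2 (n = 3) were compared with cultures lacking it (n = 3), and the labels do not say what Smo2 is. The genotype of the last 4 groups is not labelled, though the study calls its CGNs given ICRF-193 or DMSO wild type. The labels spell the strain C56Bl6/J where the methods give C57BL/6N, and the sex of the pups was not discriminated. All arrays are labelled biological replicates, but nothing says which came from separate litters or cultures, so that p-values measure the spread between these samples.

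Netrins are secreted, laminin-related proteins that steer growing axons and migrating neurons. Dcc and its paralogue neogenin (Neo1) are the receptors through which netrin-1 attracts, whereas the 4 Unc5 proteins turn the response to repulsion, alone or together with Dcc. In the cerebellum Unc5c is best known from the rostral cerebellar malformation mouse, in which granule cells that lack it spread beyond the rostral border of the cerebellum. Dcc and Unc5 proteins are also called dependence receptors, since they can start cell death when no ligand is bound.

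The arrays carried the marks of granule cells, with 8 of 9 markers fixed for that lineage above this filter of 6.44 on all 22 arrays (all but Gabra6). RNA of other cell types was measured too. Above the filter on all 22 arrays were 5 of 7 markers of astrocytes and Bergmann glia (Fabp7 at 10.49 to 14.06), 4 of 7 of the oligodendrocyte lineage (Mbp at 11.25 to 13.72), 2 of 3 of GABAergic interneurons (Gad1 at 10.08 to 12.25), 2 of 6 of microglia (Csf1r and Tyrobp), 1 of 6 of fibroblasts and pericytes, 1 of 4 of Purkinje cells (Calb1) and 0 of 5 of endothelium. Below it on all 22 were Pcp2 of Purkinje cells, Mog of myelin, Cx3cr1 and Itgam of microglia and Pecam1 and Tek of endothelium. The dimmer of 2 Chd7 probe sets was at 8.99 to 9.98 in mutant and 11.27 to 11.72 in control CGNs on the log2 scale (limma adjusted p = 0.018 over every probe set), while the other changed by -0.25 (limma adjusted p = 0.453). The sources used here do not say which exons these probe sets lie in, so that neither is known to cover the deleted part. Both Chd7 probe sets also fell with ICRF-193, by -1.28 and -1.35 (limma adjusted p = 0.0255 and 0.00524 over every probe set). With Smo2 they changed by -0.72 and -0.67 (limma adjusted p = 0.000223 and 0.000584). In mutant CGNs 3 of 3 measured muscle markers were called higher, with linear signals summed over the whole list of 1240 to 2585 against 259 to 420. Of the fibroblast and pericyte markers 2 of 5 were called higher (4621 to 7919 against 2342 to 4089), and 4 with the replicate block. Of the oligodendrocyte lineage markers 1 of 6 was called higher (17195 to 23899 against 5452 to 13755), and 6 with the block. Of the progenitor markers 1 of 4 was called higher (Ccnd1, 1.05, with sums of 4450 to 8092 against 3274 to 4663), and 4 with the block. Of the astrocyte markers 1 of 7 was called higher (Gja1, 0.86), and 3 with the block, and the granule marker Pax6 was called lower (-0.42). Of all 10771 genes 5.07% were called higher and 3.83% lower in the mutant, and 1411 genes were called with the block. The 3 Y-linked genes measured were called lower in the mutant, at 48 to 399 against 1221 to 1746. No mutant array reached the Y-linked signal of a control array, so that effects of the mutation and of the sex of the pups cannot be told apart in this comparison. With ICRF-193 the granule markers Rbfox3 (-1.02) and Atoh1 (-0.90), Gad1 (-0.42) and Cnp of oligodendrocytes (-0.97) were called lower and the progenitor marker Mycn (0.71) higher. With the block 5 of 6 oligodendrocyte lineage markers passed, namely Mbp (-0.62), Olig1 (-1.05), Sox10 (-0.61) and Cnp as lower and Pdgfra (0.68) as higher. Of all 10771 genes 3.48% were called lower and 3.16% higher with ICRF-193, and 946 genes were called with the block. With Smo2, 4 of 4 progenitor markers were called higher (34319 to 35499 against 5299 to 5627), while 7 of 8 granule markers (64576 to 71389 against 98971 to 101257), 3 of 3 interneuron markers, 3 of 3 microglia markers and 5 of 7 astrocyte markers were called lower. The remaining granule marker, Atoh1, was called higher (1.74), and so were the other 2 astrocyte markers. Of 6 oligodendrocyte lineage markers 3 were called lower and 3 higher with Smo2. Most genes were called in this comparison, 39% of all 10771 as lower and 29.7% as higher. The part of these markers in the results on netrin genes was not tested. In bulk RNA, fewer cells of a type and less RNA per cell cannot be told apart.

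Unc5b, Unc5c, Unc5d and Ntn4 were called lower with Smo2, as were 39% of all genes. The 250 bases before the start sites of Unc5b and Unc5c are shown so that these 2 upstream regions can be compared. They were read from RefSeq promoter windows of the build GRCm38.p6, which held 5 of the 8 members (not Ntn1, Dcc or Unc5d). The window of Unc5b is chr10:60831582-60831831 on the minus strand and that of Unc5c is chr3:141465314-141465563 on the plus strand, both given 5′ to 3′ towards the gene. Capitals mark the GC box GGGCGG on either strand, the element bound by Sp family factors.
Unc5b: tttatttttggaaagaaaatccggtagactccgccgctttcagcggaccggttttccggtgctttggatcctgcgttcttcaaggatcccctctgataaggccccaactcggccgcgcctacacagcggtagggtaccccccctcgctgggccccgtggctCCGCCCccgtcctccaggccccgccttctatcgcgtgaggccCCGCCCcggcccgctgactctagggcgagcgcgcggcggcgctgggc
Unc5c: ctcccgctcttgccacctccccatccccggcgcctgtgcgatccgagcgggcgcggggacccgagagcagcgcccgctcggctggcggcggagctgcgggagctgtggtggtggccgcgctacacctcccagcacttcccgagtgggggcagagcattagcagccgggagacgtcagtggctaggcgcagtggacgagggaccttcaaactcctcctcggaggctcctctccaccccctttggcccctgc
The Unc5b window held 2 GC boxes, whose first bases lie 89 and 47 bases before the start site, and the Unc5c window held 0. At least 1 was present in 32.7% of all 32851 upstream windows of the same length. The Unc5a window held 5, that of Ntn4 held 4 and that of Neo1 held 1. The E-box CANNTG, bound by basic helix-loop-helix factors such as Atoh1, was found in 0 of these 5 windows and in 66.2% of all windows. The Gli motif GACCACCCA was found in 0 of 5 and in 0.225% of all. These are matches of letters in a short stretch and say nothing of binding.

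In Chd7 mutant CGNs Unc5d was the member that changed most, and it went up while Unc5c and Ntn4 went down. With limma at an adjusted p under 0.05, 1 of 8 members was called higher and 2 lower, where 5.07% of the 10771 genes were called higher, 3.83% lower and 8.89% either way. The median change of the members was 0.23, against 0.00 over all genes. With ICRF-193, Dcc and Unc5c fell most, Ntn1 fell as well, and Neo1 and Unc5a rose. There 3 of 8 members were called lower and 2 higher, where 3.48% of genes were called lower, 3.16% higher and 6.64% either way, and the members had a median of -0.33 against 0.01. With Smo2, Unc5b, Unc5c, Unc5d and Ntn4 fell and Ntn1 rose. There 4 of 8 were called lower and 1 higher, with a median of -0.59 against -0.09, but 39% of all genes were called lower and 29.7% higher, 68.6% in all, so the members' share of 5 of 8 lay near that of all genes. Arrays centred on their medians moved the share of higher calls among all called genes from 57% to 41.5% in the Chd7 comparison and from 43.2% to 55.7% with Smo2. Replicates 1 and 2 resembled each other in the first 2 comparisons, as did replicates 3 and 4. With the mean of each such set as 1 sample, limma called 0 of 8 members and 0 of 10771 genes in the Chd7 comparison (3 and 1122 at an unadjusted p under 0.05), and 1 member, Unc5c, with ICRF-193.

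**Figure D1:**
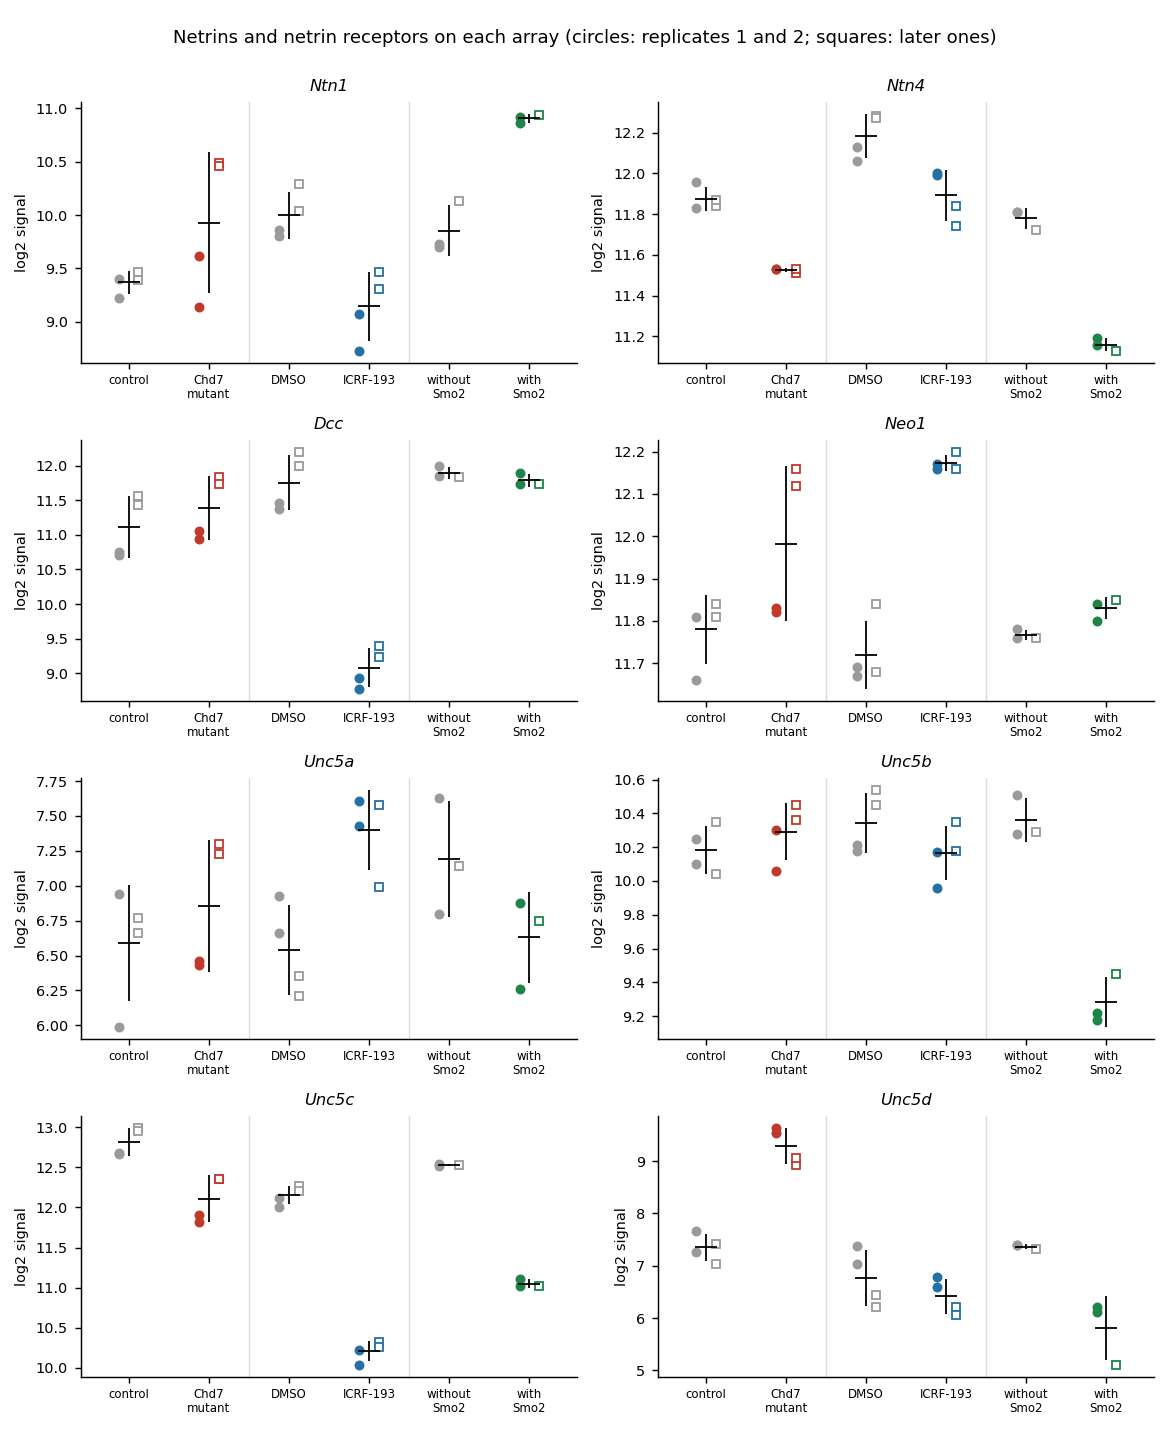
Log2 signal (vertical axis, a scale of its own for each gene) of the brightest probe set of the 8 members on each of the 22 arrays, by group (horizontal axis). Circles are replicates 1 and 2, open squares are later replicates, and the black dash and bar are mean ± SD; Unc5d stands highest in the Chd7 mutant, and Dcc and Unc5c stand lowest with ICRF-193.

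Among the ligands, Ntn1 encodes netrin-1, the main chemoattractant of the family. Its log2 signal was 9.22, 9.40, 9.39 and 9.47 in control and 9.62, 9.14, 10.49 and 10.46 in Chd7 mutant CGNs, in the order of the replicates. Mutant replicates 1, 3 and 4 lay above all controls, replicates 3 and 4 by the most, and replicate 2 lay below them. The change of 0.56 ± 0.29 did not pass (limma adjusted p = 0.267), whereas a fit of replicates 3 and 4 alone gave 1.04 (limma adjusted p = 0.00534). The p-value of the latter fit measures the spread within that set only, and it called 1503 of 10771 genes, against 958 with all replicates. With ICRF-193 the signal fell from 9.80, 9.86, 10.29 and 10.04 to 8.73, 9.07, 9.31 and 9.47, without overlap. This was a 1.81-fold decrease (-0.85 ± 0.17, limma adjusted p = 0.0217). The call was lost in the fit of every probe set (adjusted p = 0.0895) and without DMSO replicate 3, DMSO replicate 4 or ICRF-193 replicate 2 (0.056 to 0.0633). With Smo2 Ntn1 rose 2.07-fold, from 9.73, 9.70 and 10.13 to 10.86, 10.92 and 10.94 (1.05 ± 0.12, limma adjusted p = 0.000439). The dim probe set of Ntn1, at a mean of 5.79, rose with Smo2 too (0.65 ± 0.15, limma adjusted p = 0.0315 over every probe set).

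Ntn4 encodes netrin-4, a netrin of basement membranes that binds laminins. Its signal was 11.96, 11.83, 11.84 and 11.87 in control and 11.53, 11.53, 11.51 and 11.53 in Chd7 mutant CGNs. The groups did not overlap, and the small decrease, 1.28-fold, passed in the gene table (-0.35 ± 0.05, limma adjusted p = 0.00627) and over every probe set (0.00794). The call was lost with the mean of the 2 Ntn4 probe sets (-0.31, limma adjusted p = 0.0525) and within replicates 1 and 2 (-0.36, limma adjusted p = 0.0652), and over every probe set it was lost with the replicate block, with arrays centred on their medians and with a floor of 1. With ICRF-193 it was 11.99, 12.00, 11.84 and 11.74, against 12.06, 12.13, 12.28 and 12.27 with DMSO. All 4 treated arrays lay below the DMSO arrays, yet the change of -0.29 ± 0.09 did not pass (limma adjusted p = 0.102; 0.0362 with an intensity trend in the variance), and the second Ntn4 probe set had a value of 0.16 the other way. With Smo2 both probe sets fell, the brighter one from 11.81, 11.81 and 11.72 to 11.16, 11.19 and 11.13 (-0.62 ± 0.05, limma adjusted p = 0.000111) and the other by 0.46 (limma adjusted p = 0.0105 over every probe set).

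Dcc, the attractive netrin receptor, showed the largest change of any member, with ICRF-193. Its log2 signal fell from 11.37, 11.46, 12.20 and 11.99 with DMSO to 8.78, 8.93, 9.39 and 9.24 with ICRF-193. The highest treated array lay far below the lowest DMSO array, and the decrease was 6.36-fold (-2.67 ± 0.21, limma adjusted p = 0.000154). The second bright Dcc probe set fell by 2.35 (limma adjusted p = 0.00105 over every probe set), while the third one, dim at a mean of 5.92, had a change of -0.54 (0.338).

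In Chd7 mutant CGNs the Dcc signal was 11.05, 10.94, 11.83 and 11.73, against 10.75, 10.71, 11.56 and 11.43 in control. The groups overlapped, because replicates 3 and 4 were higher than replicates 1 and 2 in both, and the change of 0.27 ± 0.28 did not pass (limma adjusted p = 0.574). Between arrays of the same replicate number, however, Dcc was higher in the mutant by 0.29, 0.23, 0.28 and 0.30. With the replicate number as a block the same change had an SE of 0.05 and passed (limma adjusted p = 0.0286). With Smo2 the Dcc signal was 11.74, 11.89 and 11.73, against 11.85, 11.99 and 11.84 without, and it did not pass (-0.11 ± 0.07, limma adjusted p = 0.246). The direction of this last value was not settled, since it was 0.11 with arrays centred on their medians and 0.36 as the mean of the Dcc probe sets. That mean includes the dim probe set, at 0.97 ± 0.56, while the second bright one gave 0.23 ± 0.10 (limma adjusted p = 0.3 and 0.189 over every probe set).

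Neo1, which encodes neogenin, a receptor for netrins and for repulsive guidance molecules, moved less. Its signal was 12.17, 12.16, 12.20 and 12.16 with ICRF-193 and 11.69, 11.67, 11.68 and 11.84 with DMSO. The groups did not overlap, and the increase was 1.37-fold (0.45 ± 0.07, limma adjusted p = 0.00487). It did not pass with arrays centred on their medians (0.39, limma adjusted p = 0.212) or as the mean of the 5 Neo1 probe sets (0.28, limma adjusted p = 0.269). In Chd7 mutant CGNs Neo1 was at 11.82, 11.83, 12.12 and 12.16, against 11.81, 11.66, 11.84 and 11.81 (0.20 ± 0.10, limma adjusted p = 0.237). With Smo2 it was at 11.80, 11.84 and 11.85, against 11.76, 11.78 and 11.76 (0.06 ± 0.05, limma adjusted p = 0.274). Centring arrays on their medians moved the median change of all genes with Smo2 from -0.09 to 0.05, and Neo1 was then at 0.28 and passed (limma adjusted p = 0.00282).

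Among the repulsive receptors, Unc5c fell in each of the 3 comparisons. Its log2 signal was 12.68, 12.66, 12.99 and 12.95 in control and 11.90, 11.82, 12.36 and 12.36 in Chd7 mutant CGNs. The groups did not overlap, and the decrease was 1.63-fold (-0.71 ± 0.15, limma adjusted p = 0.0267, or 0.00515 with the replicate block). The call was lost over every probe set, where its 2 probe sets had adjusted p = 0.0801 and 0.104, and without control replicate 1, 3 or 4 or mutant replicate 1 or 2 (0.0533 to 0.072). With ICRF-193 Unc5c fell 3.84-fold, from 12.01, 12.12, 12.27 and 12.21 to 10.04, 10.22, 10.32 and 10.26 (-1.94 ± 0.09, limma adjusted p = 1.24e-05). Its second probe set fell by 1.85 (limma adjusted p = 0.000377 over every probe set). With Smo2 it fell 2.79-fold, from 12.52, 12.54 and 12.53 to 11.02, 11.11 and 11.02 (-1.48 ± 0.05, limma adjusted p = 4.88e-06), and the second probe set fell by 1.30 (0.000539).

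Unc5d, a receptor for netrin and for the adhesion protein Flrt2 in migrating cortical neurons, was the one Unc5 gene called higher in the mutant. Its signal was 7.67, 7.27, 7.42 and 7.04 in control and 9.54, 9.63, 8.93 and 9.06 in Chd7 mutant CGNs. All mutant arrays lay above all controls, a 3.84-fold increase (1.94 ± 0.19, limma adjusted p = 0.0011), and the value was 2.12 within replicates 1 and 2 and 1.77 within replicates 3 and 4. With ICRF-193 the signal was 6.79, 6.59, 6.22 and 6.06, against 7.04, 7.38, 6.45 and 6.22 with DMSO. These groups overlapped, and the change did not pass (-0.36 ± 0.27, limma adjusted p = 0.541, or 0.147 with the replicate block). With Smo2 Unc5d fell from 7.39, 7.39 and 7.32 to 6.12, 6.22 and 5.11 (-1.55 ± 0.29, limma adjusted p = 0.00356). The gene has 1 probe set. Outside the mutant no array went above 7.67, and the signal was below the filter of 6.44 on 6 arrays, namely all 3 with Smo2, ICRF-193 replicates 3 and 4 and DMSO replicate 4.

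Unc5b, best known as the Unc5 receptor of blood vessels, fell with Smo2. Its signal went from 10.51, 10.28 and 10.29 to 9.18, 9.22 and 9.45, a 2.11-fold decrease (-1.08 ± 0.10, limma adjusted p = 0.00016), and its second probe set fell by 1.06 (0.00392 over every probe set). It was at 10.06, 10.30, 10.36 and 10.45 in Chd7 mutant CGNs against 10.10, 10.25, 10.04 and 10.35 in control (0.10 ± 0.10, limma adjusted p = 0.576). With ICRF-193 it was at 9.96, 10.17, 10.18 and 10.35, against 10.21, 10.18, 10.54 and 10.45 (-0.18 ± 0.11, limma adjusted p = 0.451). Whether its change with Smo2 differs from these was not tested.

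Unc5a, an Unc5 receptor with a part in cell death in the developing spinal cord, has 1 probe set, whose signal lay close to the filter. With ICRF-193 it was at 7.61, 7.43, 6.99 and 7.58, against 6.66, 6.93, 6.21 and 6.35 with DMSO. The groups did not overlap, and the rise was 1.82-fold (0.86 ± 0.19, limma adjusted p = 0.0305). The call was lost over every probe set (adjusted p = 0.116) and without DMSO replicate 1, 3 or 4 or ICRF-193 replicate 1, 2 or 4 (0.0641 to 0.0885). In Chd7 mutant CGNs it was at 6.46, 6.43, 7.30 and 7.23, against 5.99, 6.94, 6.66 and 6.77 (0.26 ± 0.27, limma adjusted p = 0.592). The change was -0.02 within replicates 1 and 2 and 0.55 within replicates 3 and 4 (limma adjusted p = 0.0198, which measures the spread within that set only). Between arrays of the same number it was 0.46, -0.51, 0.64 and 0.46, so that replicate 2 had the other sign. With Smo2 it was at 6.88, 6.26 and 6.75, against 7.63, 6.80 and 7.14 (-0.57 ± 0.25, limma adjusted p = 0.0872). It passed without replicate 2 of the cultures without Smo2 (-0.76, limma adjusted p = 0.0388) and with no further normalization (-0.74, limma adjusted p = 0.0336).

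Over every probe set, 2 of the 18 passed in the Chd7 comparison, where 2.76% of 45037 probe sets did, 5 of 18 with ICRF-193 against 1.95%, and 10 of 18 with Smo2 against 29.9%. Where a gene was called, its probe sets had changes of 1 sign, except for a dim Neo1 probe set with ICRF-193 (-0.31 at a mean of 6.24). Another dim Neo1 probe set, at a mean of 6.44, rose by 1.33 with Smo2 (limma adjusted p = 0.0115), while the brightest one changed by 0.06.

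**Figure D2:**
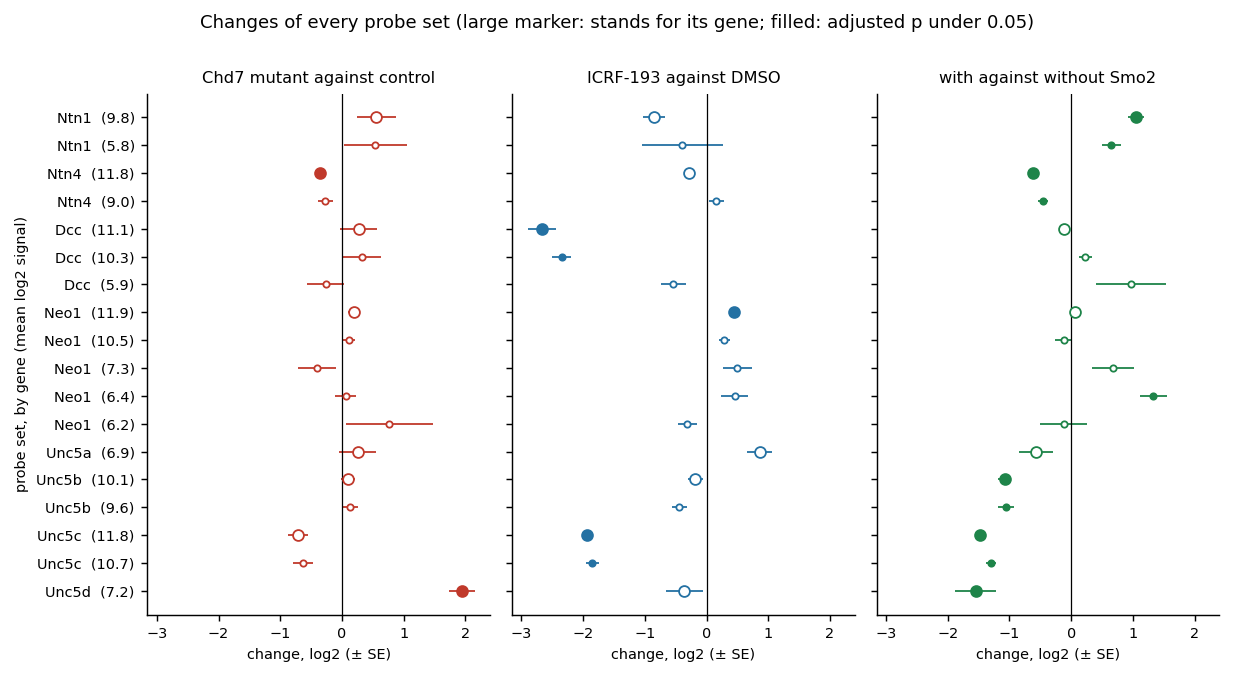
Log2 change ± SE (horizontal axis) of each of the 18 member probe sets (vertical axis, by gene, with the mean log2 signal over all arrays in brackets) in the 3 comparisons, from the limma fit of every probe set. Filled markers have an adjusted p under 0.05 and large markers stand for their gene; both bright Dcc and both Unc5c probe sets lie well to the left with ICRF-193, and all Unc5b and Unc5c probe sets do so with Smo2.

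The paralogues were then compared with each other and with Dcc through the difference in log2 signal of 2 genes on each array. The height of such a difference compares different probe sets and is not read. Its shift between groups is read, for the brightest probe sets. In each comparison 10 pairs were tested with exact two-sided permutation tests, whose smallest p is 0.0286 for 4 arrays against 4 and 0.1 for 3 against 3, with Benjamini-Hochberg adjustment over the 10 pairs. The tests exchange arrays freely, although arrays of 1 replicate set resembled each other in the first 2 comparisons. With sign flips of the differences between same-numbered arrays, the replicate block, 0 of 10 pairs passed in either of these, as the smallest p is then 0.125.

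In Chd7 mutant CGNs 6 of 10 pairs shifted (exact permutation p = 0.0286, adjusted p = 0.0476 for each). The largest shift was between Unc5c and Unc5d. Unc5c minus Unc5d was 5.01, 5.39, 5.57 and 5.91 in control and 2.36, 2.19, 3.43 and 3.30 in mutant CGNs, a shift of -2.65. Unc5d minus Dcc shifted by 1.67 and Unc5b minus Unc5d by -1.84, both in favour of Unc5d. Unc5c minus Dcc went from 1.93, 1.95, 1.43 and 1.52 to 0.85, 0.88, 0.53 and 0.64, a shift of -0.98. Unc5c also lost 0.81 relative to Unc5b and 0.97 relative to Unc5a. The shift of Unc5a against Unc5d (-1.68) did not pass (exact permutation p = 0.0571, adjusted p = 0.0816). Unc5a against Unc5b (0.16), Unc5a against Dcc (-0.01) and Unc5b against Dcc (-0.17) gave no detectable shift (exact permutation p = 0.543, 1 and 0.629). Each of the 6 pairs that passed holds Unc5c or Unc5d, so they are not separate results. By the exact permutation test 0 of 10 pairs passed once control replicate 3 or 4 or any 1 mutant array was left out. These calls depend on each other, because a pair passes the adjustment only when enough others also reach the smallest p. The loss of all of them therefore does not grade the single shifts.

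With ICRF-193, 9 of 10 pairs shifted (exact permutation p = 0.0286, adjusted p = 0.0317 for each). Dcc lost most against every Unc5 gene, by 3.53 against Unc5a, 2.49 against Unc5b, 2.31 against Unc5d and 0.73 against Unc5c. Unc5c minus Dcc was 0.65, 0.65, 0.07 and 0.22 with DMSO and 1.25, 1.29, 0.93 and 1.02 with ICRF-193. This shift was -0.04 when each gene was the mean of its probe sets, which for Dcc include the dim one that changed by -0.54. Unc5c lost 1.76 against Unc5b, from -1.80, -1.93, -1.74 and -1.76 to -0.08, -0.05, -0.14 and 0.08 in Unc5b minus Unc5c, and it lost 2.81 against Unc5a. Unc5c minus Unc5d shifted by -1.59. The exception was Unc5b against Unc5d (0.17, exact permutation p = 0.714).

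With Smo2 no pair could pass, since 0.1 is the smallest p of 3 arrays against 3. Unc5c minus Dcc was 0.67, 0.55 and 0.69 without and -0.72, -0.78 and -0.70 with Smo2, a shift of -1.38 (exact permutation p = 0.1, adjusted p = 0.2). The shifts against Dcc were -1.45 for Unc5d and -0.97 for Unc5b (both p = 0.1 by the exact permutation test) and -0.46 for Unc5a (exact permutation p = 0.4). Differences that involve Unc5d rest here on signals below the filter on all 3 arrays with Smo2.

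**Figure D3:**
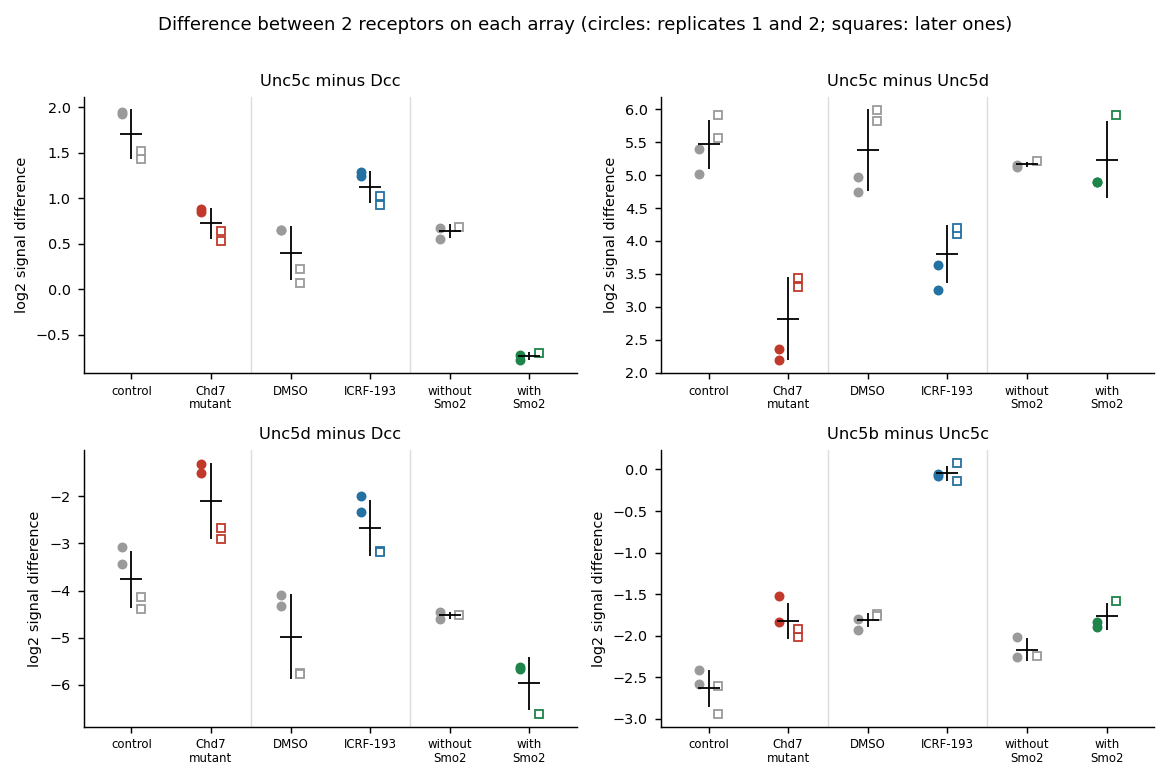
Difference in log2 signal between 2 receptor genes on the same array (vertical axis) for 4 of the 10 pairs, by group (horizontal axis), with replicates 1 and 2 as circles, later replicates as open squares and mean ± SD in black. Unc5c minus Unc5d lies between 2.19 and 3.43 in the Chd7 mutant and between 5.01 and 5.91 in its control, and Unc5c minus Dcc is lower on each array with Smo2 (-0.78 to -0.70) than on each array without it (0.55 to 0.69).

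The difference between the effect of the Chd7 mutation and that of ICRF-193 was tested in 1 fit of the 16 arrays of these 4 groups, which share no array between the comparisons. It passed for 4 of 8 members, all with a higher value for the mutation, where 3.87% of genes were called higher, 2.62% lower and 6.49% either way. With the mean of each replicate set as 1 sample, limma called 0 of 8 members and 4 of 10771 genes (4 members at an unadjusted p under 0.05). The difference was 2.94 ± 0.37 for Dcc (limma adjusted p = 0.000258), 2.30 ± 0.35 for Unc5d (0.00117), 1.24 ± 0.18 for Unc5c (0.000876) and 1.41 ± 0.36 for Ntn1 (0.0288). For Dcc and Unc5c the second bright probe set gave 2.68 and 1.22 (limma adjusted p = 0.00167 and 0.00444 over every probe set). The call for Ntn1 was lost without control replicate 1, 2 or 3, mutant replicate 3 or 4, DMSO replicate 3 or ICRF-193 replicate 1 or 2 (0.0501 to 0.061). Unc5c, called lower in both comparisons, fell further with ICRF-193. Chd7 RNA was itself lower with ICRF-193 (-1.28 and -1.35 for its 2 probe sets), and the part of this in the differences was not tested. Ntn4, Neo1, Unc5a and Unc5b had differences of -0.06, -0.25, -0.60 and 0.29 and did not pass (limma adjusted p = 0.824, 0.254, 0.387 and 0.352).

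The members span a wide range of annotated gene lengths in GRCm38.p6, and their changes with ICRF-193 are given in that order as a description. Dcc is the longest at 1097616 bases and changed by -2.67. Unc5d at 572955 bases changed by -0.36, Unc5c at 369361 by -1.94 and Ntn1 at 177463 by -0.85. Neo1 at 161936 bases changed by 0.45, Ntn4 at 104924 by -0.29, Unc5b at 68988 by -0.18 and Unc5a at 60868 by 0.86. In the Chd7 mutant the same order gave 0.27, 1.94, -0.71, 0.56, 0.20, -0.35, 0.10 and 0.26.

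Across the 6 groups each member had its own order of levels. Dcc ran from 11.89 ± 0.08 (mean ± SD, n = 3) without Smo2 through 11.79 ± 0.09 with Smo2, 11.76 ± 0.40 with DMSO, 11.39 ± 0.46 in the mutant and 11.11 ± 0.44 in its control to 9.09 ± 0.28 with ICRF-193. Among these neighbours, with Smo2, DMSO, the mutant and its control were not separated by more than the larger SD of the pair, and ICRF-193 was. Unc5c ran from 12.82 ± 0.17 in the Chd7 control through 12.53 ± 0.01 without Smo2, 12.15 ± 0.11 with DMSO, 12.11 ± 0.29 in the mutant and 11.05 ± 0.05 with Smo2 to 10.21 ± 0.12 with ICRF-193, and only DMSO and the mutant were not separated. Unc5d was highest in the mutant at 9.29 ± 0.35, followed by 7.37 ± 0.04 without Smo2 and 7.35 ± 0.26 in the Chd7 control, which did not differ beyond their spread, and then by DMSO (6.77 ± 0.53), ICRF-193 (6.42 ± 0.33) and Smo2 (5.82 ± 0.62), which did not separate from 1 to the next either. Unc5b lay between 10.16 and 10.36 in 5 groups, whose neighbours did not separate, and at 9.28 ± 0.14 with Smo2. Unc5a lay between 6.54 and 7.40 with no neighbours separated. Ntn1 was highest with Smo2 (10.90 ± 0.04) and lowest with ICRF-193 (9.15 ± 0.32), Ntn4 highest with DMSO (12.19 ± 0.11) and lowest with Smo2 (11.16 ± 0.03), and Neo1 highest with ICRF-193 (12.17 ± 0.02) and lowest with DMSO (11.72 ± 0.08). The 3 comparisons were separate experiments, and differences between their controls cannot be told apart from differences between experiments.

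The genes most like 3 receptors were listed by Pearson's r over the 22 arrays, after each comparison was centred on the mean of its 2 groups, as a description of arrays that share treatments. For Unc5c these were Reln, which encodes the secreted glycoprotein reelin, Cacna2d1, a calcium channel subunit, Nbea, Adgrl3 and the adhesion molecule Nrcam, all with r = 0.98. For Dcc they were the RNA-binding protein gene Msi2, the phosphatase Ptprg and the transcription factor Nfib (r = 0.94) and Akap6 and Celf2 (r = 0.92). For Unc5d they were Rgs2 and Sdhaf4 (r = 0.89) and Lrrn1, Id2 and Shisa5 (r = 0.87), none of which changed in the mutant by more than 0.62. Among the members the highest values were 0.82 for Unc5c with Ntn4 and 0.78 for Unc5c with Dcc, and Unc5c with Unc5d had 0.12.

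Of 64 other genes of the netrin pathway, 49 were bright enough to be tested. In Chd7 mutant CGNs 6 were called lower and 2 higher, with a median change of -0.07, where 3.83% of all genes were called lower, 5.07% higher and 8.89% either way. With the replicate block 13 of the 49 were called, where 1411 of 10771 genes were. The largest decreases were those of Flrt3 (-0.87, limma adjusted p = 0.00142), a transmembrane ligand of Unc5 receptors, and Lrrc4c (-0.72, 0.0367), a partner of netrin-G1. Dscaml1, a paralogue of the netrin receptor Dscam, and the heparan sulfate proteoglycan Sdc2 rose by 0.60 and 0.40 (limma adjusted p = 0.0054 and 0.0112). Among 8 other ligands of Unc5 and neogenin 3 fell, namely Flrt3 and the Flrt-binding latrophilins Adgrl2 (-0.46) and Adgrl3 (-0.59), and 0 rose. Of 24 kinases and adaptors that act below the receptors 1 passed (Vasp, -0.37), and of 8 genes of dependence receptor death and turnover 0 passed.

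With ICRF-193, 5 of the 49 were called lower and 3 higher, with a median of -0.01, where 3.48% of all genes were called lower and 3.16% higher. Adgrl3 fell by 1.83 (limma adjusted p = 7.04e-06) and Dscam by 0.94 (0.00625). Rgmb, a ligand of neogenin, and Dapk1, a kinase of cell death that acts below Unc5b, rose by 0.57 and 0.46 (limma adjusted p = 0.0476 and 0.0464; the latter 0.0563 with the replicate block). With Smo2, 31 were called lower and 10 higher, with a median of -0.41, where 39% of all genes were called lower and 29.7% higher. Adgrl3 (-1.64) and the kinase Prkca (-1.47) fell most, and the membrane protein Lrig3 (3.10) and Dock1 (2.46), an activator of Rac below Dcc, rose most. Like Unc5c, the list genes Lrrc4c, Dscam and Adgrl3 were called lower in each of the 3 comparisons. The share of all genes called lower in each of the 3 is not given here, so that this is a description only.

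**Figure D4:**
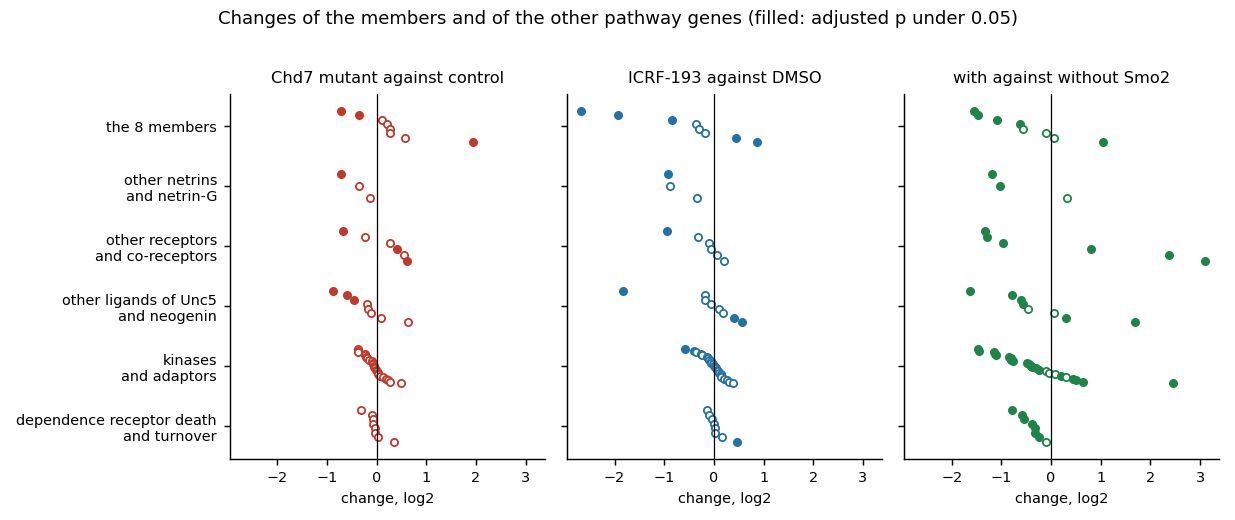
Log2 change (horizontal axis, the same scale in each panel) of the 8 members and of 49 other netrin pathway genes by group (vertical axis) in the 3 comparisons, with filled points for limma adjusted p under 0.05. Most kinases and adaptors lie near 0 and are open in the Chd7 and ICRF-193 panels, and with Smo2 most groups hold filled points on the left.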

How the data were processed

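RNA of 22 samples in 6 groups was hybridised to Affymetrix arrays, and the authors deposited linear signal intensities for 45101 probe sets. Neither the summarisation software nor the scaling is named in the sources at hand. Every array had a mean of 500 once 2% of its probe sets were trimmed from either end, so whole arrays had been scaled. Probe sets were named from GEO's platform annotation, and gene lengths and promoter windows came from RefSeq tables of GRCm38.p6.

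Intensities were floored at 16, taken to log2 and quantile normalized together, from array medians of 6.33 to 6.81. Of 231 pairs of arrays 0 were identical. The brightest probe set stood for a gene, a mean of 6.44 or more was required, and 64 array controls were dropped. Limma 3.58.1 (R 4.3.3) fitted the groups of each comparison. Its p-values were two-sided and were adjusted by Benjamini and Hochberg's method over all 10771 genes, or in a separate fit over 45037 probe sets, and an adjusted p under 0.05 was called. The Chd7 and ICRF-193 effects were compared by an interaction contrast. Since intensities hold no counts, precision depends on how many arrays there are. The scripts were tested on simulated data.

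Deviations from the group mean correlated for arrays with a shared replicate number (0.39 to 0.42 for Chd7, 0.28 to 0.41 for ICRF-193), so the number also served as a block. Arrays of the same set with another number correlated as much (0.38 to 0.44 and 0.30 to 0.35).

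The rule for members uses gene symbols only, but the gene family, the pathway and marker lists and the tests were picked with earlier results of these data known. Named genes are all members, the 2 pathway genes with the largest changes each way among those called, other called genes of that list, the 5 genes most like Unc5c, Unc5d and Dcc, Chd7 and markers. Alternatives changed the block, normalization, floor, variance model, test, filter and probe sets per gene, or left out single arrays. Plots were made with matplotlib 3.10.9 (Python 3.11.15).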

Additional observations from a re-analysis of the deposited data

Results flagged for a closer look

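In all, 4 members had an effect of the Chd7 mutation that differed from their effect of ICRF-193 by the test of the difference itself. The difference in log2 change was 2.94 for Dcc, 2.30 for Unc5d, 1.41 for Ntn1 and 1.24 for Unc5c.

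Single arrays stood apart from the others of their group by Dixon's test in 2 of 72 groups of 4 arrays. The brightest Neo1 probe set was at 11.84 in DMSO replicate 4, above the other 3 DMSO arrays (11.67 to 11.69), and still below all ICRF-193 arrays. A dim Neo1 probe set was at 6.48 in ICRF-193 replicate 1, below the other 3 (6.96 to 7.01). Chance gives such a mark in about 1 of 20 groups.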

How the results depend on the processing

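The members called in the Chd7 comparison numbered 3 and ranged from 2 to 3 when each array was left out, but were 5 within replicates 3 and 4 and 0 with set means as samples, an alternative chosen after seeing the data. With ICRF-193 the 5 called members became 3 with the methods' t-test after Benjamini-Hochberg adjustment, 3 with no filter on dim genes and 3 with the mean of a gene's probe sets. They were 2 within replicates 1 and 2, 2 within replicates 3 and 4 and 1 with set means, and 3 to 5 when each array was left out (3 without DMSO replicate 3, DMSO replicate 4 or ICRF-193 replicate 2). Of the 4 members with a difference between both effects 0 passed with set means in limma (4 at an unadjusted p under 0.05), and 3 to 4 when each array was left out. The count of 5 with Smo2 was 5 or 6 under each alternative. Of the probe sets, 2 passed in the Chd7 comparison, 5 with the set as a block, 1 with a floor of 1, 4 with the methods' t-test unadjusted and 4 without dim probe sets. With ICRF-193 the 5 became 11 with the methods' t-test unadjusted.

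Over all genes, the 958 called in the Chd7 comparison became 2364 with the set as a block, 2734 with the methods' t-test unadjusted, 1503 within replicates 3 and 4, 596 with mean probe sets and 526 to 720 when each array was left out. The 715 called with ICRF-193 became 1262 with the set as a block, 2054 with the unadjusted t-test, 414 with centred arrays, 467 with mean probe sets, 304 and 214 within the sets and 60 with set means. The 699 called for the difference became 1149 with the replicate block, 1504 with the set as a block, 2144 with the unadjusted t-test, 382 with centred arrays, 450 with mean probe sets and 4 with set means. The probe sets called, 1245 for Chd7 and 876 for ICRF-193, became 394 and 514 with the replicate block, 2856 and 1505 when the set was the block, 784 and 422 for centred arrays and 410 and 495 with a floor of 1, and those for Chd7 were 537 to 734 when each array was left out.

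In the Smo2 comparison arrays of the same number correlated by -0.01 to 0.03, so that they share a number only. The replicate block took the 10 probe sets called there to 6 and gave Unc5a an adjusted p of 0.00774. Among the members in the gene table it changed no other call than that of Dcc in the Chd7 mutant.

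Of the pairs, 6 shifted in the Chd7 comparison and 0 to 7 when each array was left out (0 without control replicate 3 or 4 or any 1 mutant array), and 9 shifted with ICRF-193 and 6 to 9 when each array was left out. Such calls depend on each other, because a pair passes the adjustment only when enough others also reach the smallest p. With sign flips of same-numbered differences, the replicate block, 0 and 0 could pass, since the smallest p is 0.125.

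Some values turned their sign. Unc5a in the Chd7 mutant was -0.02 within replicates 1 and 2. Dcc with Smo2 was 0.11 with arrays centred on their medians and 0.36 as the mean of its probe sets. The difference between effects for Ntn4 was 0.15 within replicates 3 and 4. In the Chd7 comparison Unc5a minus Dcc was 0.11 with no further normalization, 0.15 with mean probe sets and -0.14 to 0.24 when each array was left out, Unc5b minus Dcc was 0.00 with mean probe sets, and Unc5a minus Unc5b was -0.01 to 0.30 when each array was left out. With ICRF-193 Unc5c minus Dcc was -0.04 with mean probe sets, and Unc5b minus Unc5d was -0.08 to 0.39 when each array was left out. With Smo2 Unc5c minus Unc5d, at 0.07 over all arrays, was -0.27 without Smo2 replicate 3. The cause was not tested. Of 1030 recomputed values of single members and pairs 887 kept their direction and side of the threshold, 114 lost a call, 15 gained one and 14 turned their sign.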
